A study of Mus musculus with 7 samples.

Results

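The genes described here make, degrade and read cyclic AMP: 36 genes chosen by name, of 48321 gene rows in the count tables. They are the 9 membrane adenylyl cyclases, 15 cyclic nucleotide phosphodiesterases, 2 catalytic and 4 regulatory subunits of protein kinase A (PKA), 2 Epac exchange factors, the transcription factor Creb1 and 3 Popeye domain genes. All 36 were found in all 7 libraries. The tissue was the ventrolateral ventromedial hypothalamus (VMHvl), dissected by hand from ovariectomized female mice, so that their main source of circulating estrogen had been removed. One group received vehicle (3 mice) and the other was given estradiol benzoate (EB), a slow-release estradiol ester, at 1 µg (4 mice), both by subcutaneous injection, and tissue was collected at 4 hours. Both groups come from a mixed background that traces to a floxed Esr1 line of 129/Sv origin, where Esr1 encodes estrogen receptor alpha. The controls and the treated mice share ovariectomy, background and injection. The labels name no Cre and give no age, so whether the groups match in these is not known. Each library is 1 mouse, and the p-values measure the spread between mice.

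Cyclic AMP is the second messenger that adenylyl cyclases make from ATP when a receptor activates the stimulatory G protein. Melanocortin signalling, which the series title names, runs through such receptors. Phosphodiesterases end the signal by hydrolysis. In between, cyclic AMP is read by PKA, whose regulatory subunits hold and release the catalytic ones, by the Epac exchange factors, which activate Rap GTPases, and by Popeye domain proteins, which bind cyclic AMP in the membrane. CREB1 is the nuclear factor that PKA phosphorylates.

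Library totals ran from 21037303 to 33302293 counts. Mitochondrially encoded, haemoglobin and rRNA genes took 10.3% to 29.5% of them, and vehicle 1 stood farthest from its group (chi-square per degree of freedom of 185 and 174 against the other vehicle mice, and 21.4 between those). Between EB mice this value ran from 18.6 (EB 2 and EB 3) to 114 (EB 1 and EB 4). Levels are counts scaled to TMM-adjusted library size (CPM), as mean ± SD over mice. Slc17a6, a marker of glutamatergic neurons, was at 434 to 555 CPM in the vehicle mice and at 590 to 715 CPM in the EB mice. Every EB mouse was thus above every vehicle mouse. Slc17a6 belongs to a list of 12 VMH genes, of which 6 had positive and 6 negative estimates. Of 8 neuronal genes, 4 had positive and 4 negative estimates. Esr1 was at 317 CPM in vehicle 2, the mouse that was also highest in Popdc3, Bves, Pde1a, Pde1b and Pde1c, and at 159.5 to 231 CPM in the others. The part of these marker differences in the results was not tested. Nr5a1, a defining transcription factor of the VMH, was low at 0.927 to 3.51 CPM. Of 13 marker lists, none had a gene at 0 in all 7 libraries. Calls by edgeR were 4 higher and 1 lower of 12 VMHvl genes, 1 higher of 12 VMH genes and 1 higher of 9 tested striatal genes. In these lists DESeq2 called 6, 3 and 2 genes and limma-voom 5, 1 and 1. An unadjusted p under 0.05 was found for 7, 5 and 3. Over the other 10 lists (94 tested genes) edgeR called 0, DESeq2 3 and limma-voom 0, and 11 had an unadjusted p under 0.05. Beside these, edgeR called 0.952% of all tested genes, DESeq2 1.96% of its genes and limma-voom 0.816%. An unadjusted p under 0.05 by edgeR was found for 9.04% of all tested genes. In such bulk tissue, fewer cells of a type and less RNA per cell cannot be told apart.

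EB was compared with vehicle to see which of these transcripts differed 4 hours after estrogen. Popdc3, a Popeye gene, fell to 0.329 of its vehicle level, and Prkar2a, the RII-alpha regulatory subunit of PKA, rose 1.27-fold. Cyclases, PKA catalytic subunits, Epac genes and Creb1 gave no calls. Pde1b, a calcium- and calmodulin-stimulated phosphodiesterase, stood at 0.652 of its vehicle level and missed the threshold narrowly (adjusted p = 0.0529).

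Of 35 members tested, edgeR's quasi-likelihood test called 1 higher and 1 lower (p adjusted by Benjamini-Hochberg across 18387 tested genes, threshold 0.05), where 0.745% of genes were called higher and 0.207% lower, or 0.952% in all. Pde4c did not pass the filter on low counts. DESeq2 called 3 members (1.96% of its genes) and limma-voom called 2 (0.816%). At an unadjusted p under 0.05 there were 7 members, 1 higher and 6 lower, beside 9.04% of all tested genes (4.87% higher and 4.18% lower). The groups did not overlap in 7 of 35 members, beside 9.10% of all tested genes (5.11% higher and 3.99% lower). The 2 on the higher side were Prkar2a and Pde10a, and the 5 on the lower side were Popdc3, Bves, Pde1b, Pde7b and Prkar2b. The median log2 change was −0.05 over the tested members and −0.01 over all tested genes, and 24 of the 35 members lay within 0.2 of zero. Members were also more abundant than the usual tested gene, with a median of 51.7 CPM against 9.18 CPM, and their median SE was 0.11 against 0.19.

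**Figure D1:**
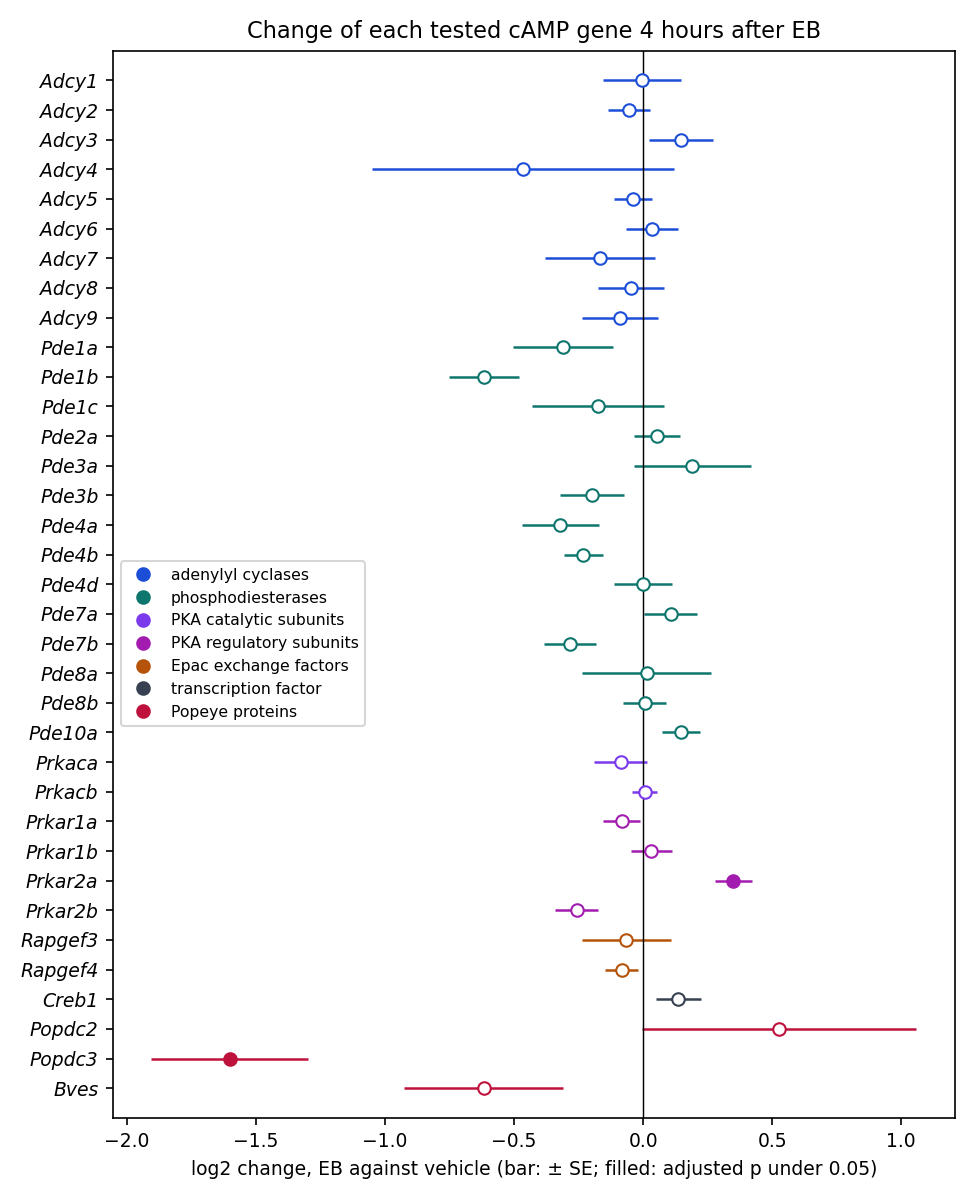
Log2 change of each of the 35 tested members with EB against vehicle, grouped by role, with the SE as a bar and calls as filled circles. Popdc3 at −1.60 and Prkar2a at 0.35 are the 2 filled points, and 24 of the 35 lie within 0.2 of zero.

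To compare genes with each other, CPM were divided by the exon length of each gene in kb (all exons of a gene merged). Prkar1a and Prkacb led all members on this scale. Prkar1a (RI-alpha) stood at 176 ± 21.5 CPM per kb with vehicle and Prkacb (catalytic beta) at 125 ± 3.63 CPM per kb, an order that turned with the longest transcript as the length (216 and 253 CPM per kb). Pde1a, a calcium- and calmodulin-stimulated phosphodiesterase, came next at 95.9 ± 26.8 CPM per kb. Bves, Popdc2, Adcy4 and Pde4c were at the other end, with Adcy4 at 0.115 ± 0.0680 CPM per kb and Pde4c at 0.0215 ± 0.0136 CPM per kb.

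**Figure D2:**
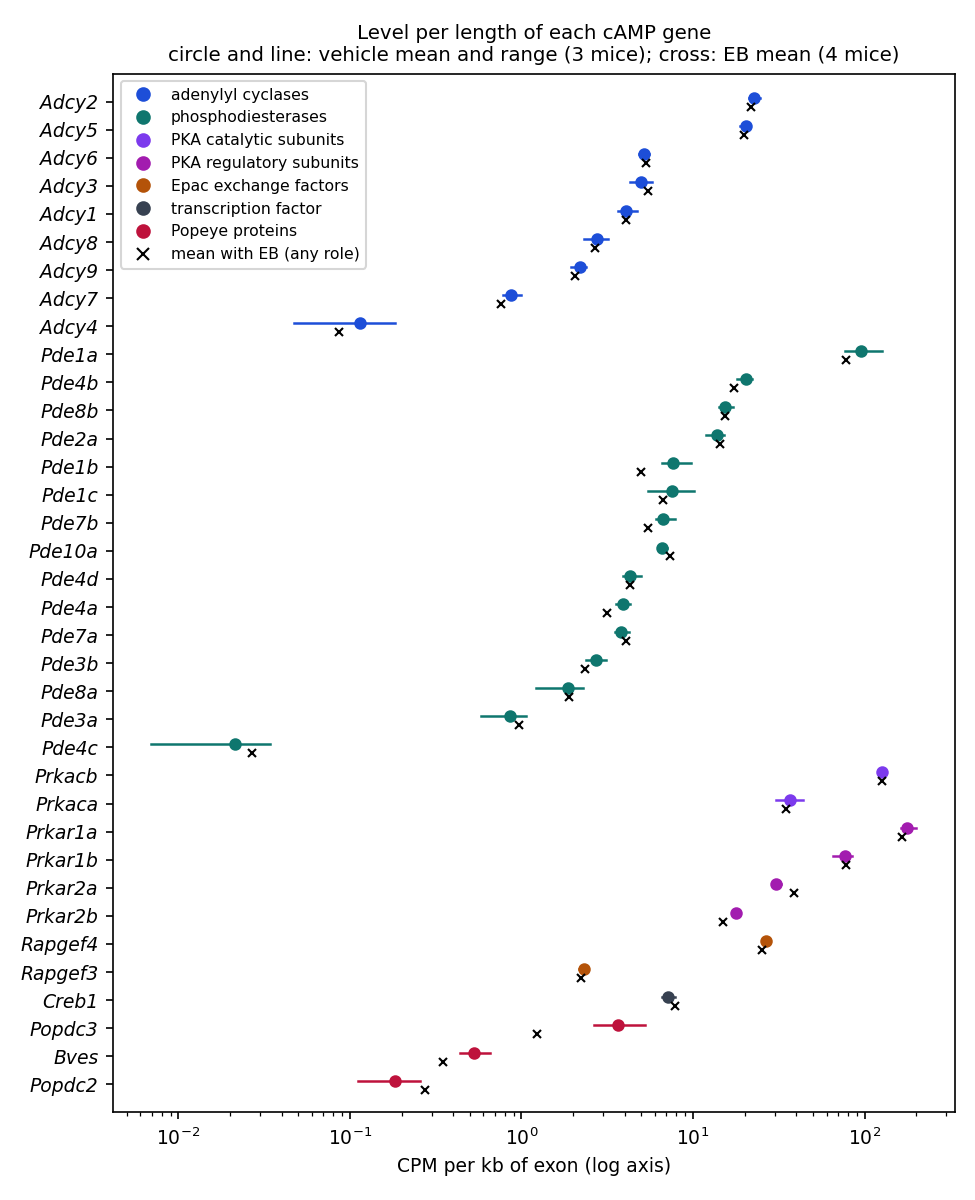
Level of each member in CPM per kb of exon on a log axis, with the vehicle mean and range over 3 mice (circle and line) and the EB mean over 4 mice (cross), in descending order within each role. Within the phosphodiesterases Pde1a at 95.9 CPM per kb lies far to the right of Pde4b at 20.3 CPM per kb, and the cross of Popdc3 at 1.24 CPM per kb lies left of its circle at 3.67 CPM per kb.

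Adenylyl cyclase transcripts were led by Adcy2 and Adcy5. Adcy2, a cyclase that G-protein beta-gamma subunits stimulate, made up 35.9% ± 1.94 of the summed cyclase level per kb with vehicle and 35.2% ± 1.29 with EB. Adcy5, a cyclase inhibited by calcium and by inhibitory G proteins, made up 32.2% ± 0.985 and 31.9% ± 1.85. With vehicle these genes stood at 22.7 ± 1.80 and 20.3 ± 1.37 CPM per kb, with overlapping ranges. Adcy6, Adcy3 and Adcy1 followed at 5.18, 4.94 and 4.05 CPM per kb, each overlapping its neighbour in this order. Adcy8, which calcium and calmodulin stimulate, stood at 2.77 and Adcy9 at 2.20 CPM per kb, again overlapping. Adcy7 was at 0.867 CPM per kb, below all of these in every vehicle mouse.

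Of the 9 cyclases, limma-voom, DESeq2 and edgeR each called 0, and 0 had an unadjusted p under 0.05. Adcy2 was at 92.8, 89.4 and 104 CPM in the vehicle mice and 88.9, 100.4, 90.1 and 88.2 CPM in the EB mice (log2 −0.05 ± 0.08 SE). Adcy5 was at 135, 150.1 and 153 CPM and at 149, 141, 131 and 146 CPM (log2 −0.04 ± 0.07). The groups overlapped for both of these abundant cyclases, and the adjusted p was 0.922 and 0.937 by edgeR. Adcy3, a cyclase of neuronal cilia, had the most positive estimate at log2 0.15 ± 0.12. Adcy4 had the most negative at −0.46 ± 0.59, from 5 to 22 counts in a library, so a change of its size was not detectable at this depth. Endothelial marker genes stand beside it: 13 of 15 had negative estimates and 0 were called by edgeR (DESeq2 2, limma-voom 0, and 7 with an unadjusted p under 0.05). Of all tested genes 48.4% had positive estimates and 9.04% an unadjusted p under 0.05, and DESeq2 called 1.96% of its genes. The summed level of the endothelial genes was 131 to 181 CPM with vehicle and 107 to 141 CPM with EB, with none at 0. Their part in the Adcy4 value was not tested. The other cyclases were Adcy1 (log2 −0.00), Adcy6 (0.03), Adcy7 (−0.17), Adcy8 (−0.05) and Adcy9 (−0.09).

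Phosphodiesterase transcripts were dominated by Pde1a, which held 49.6% ± 5.47 of the summed phosphodiesterase level per kb with vehicle and 46.6% ± 2.70 with EB. Pde4b, a cyclic AMP-specific enzyme and a target of rolipram, came next at 10.7% ± 1.14 and 10.4% ± 0.321, followed by Pde8b and Pde2a, whose vehicle ranges overlapped. Pde8b is a cyclic AMP enzyme of high affinity, and Pde2a is stimulated by cyclic GMP. The places of Pde1b, Pde1c, Pde7b, Pde10a and Pde4d in this order depended on the length used. Dividing by the longest transcript instead put Pde1b after Pde1c, Pde7b, Pde4d and Pde10a, and Pde4d ahead of Pde10a.

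Among the 14 tested phosphodiesterases edgeR called 0, DESeq2 1 and limma-voom 0, and 4 had an unadjusted p under 0.05, all lower. Over all tested genes 9.04% had such a p, 4.18% on the lower side, and DESeq2 called 1.96%. The 4 were Pde1b, Pde4a, Pde4b and Pde7b. Pde1b was at 35.7, 52.2 and 35.9 CPM in the vehicle mice and at 27.3, 29.1, 27.3 and 24.0 CPM in the EB mice. All 4 EB mice were thus below all 3 vehicle mice, and vehicle 2 stood apart above the others. The log2 change was −0.62 ± 0.14 (edgeR adjusted p = 0.0529). DESeq2 called it (adjusted p = 0.00188), and so did edgeR with upper-quartile scaling, with either other filter and without vehicle 1 (adjusted p = 0.0332). Over all alternatives the adjusted p ran from 0.000261 to 0.194. Without vehicle 2 the change shrank to −0.41 (adjusted p = 0.194).

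Pde7b, a cyclic AMP-specific enzyme, was at 75.6, 97.7 and 75.9 CPM with vehicle and 66.6, 67.3, 64.3 and 74.9 CPM with EB. The groups did not overlap, by a margin of less than 1 CPM between vehicle 1 and EB 4 (log2 −0.28 ± 0.10, adjusted p = 0.333 by edgeR). Pde4b was at 191, 234 and 217 CPM and at 175, 178, 194 and 183 CPM. Here EB 3 was above vehicle 1, so the groups overlapped (log2 −0.23 ± 0.08, adjusted p = 0.277). Pde4a, also cyclic AMP-specific, had a log2 change of −0.32 ± 0.15.

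Pde10a was the phosphodiesterase on the higher side. This dual-specificity enzyme, best known from striatal neurons, was at 84.4, 90.7 and 79.8 CPM with vehicle and at 95.6, 93.1, 97.1 and 90.9 CPM with EB. The groups separated by a small margin, between 90.7 CPM in vehicle 2 and 90.9 CPM in EB 4, and edgeR did not call it (log2 0.15 ± 0.07, adjusted p = 0.598). Pde1b and Adcy5 are also abundant in striatum, and of 9 tested striatal marker genes 7 had negative estimates and 2 positive ones. In that list edgeR called the receptor gene Gpr6, higher with EB, DESeq2 called 2 genes and limma-voom 1, and 3 had an unadjusted p under 0.05. Of all tested genes 9.04% had such a p and edgeR called 0.952%, while DESeq2 called 1.96% of its genes and limma-voom 0.816%. The summed level of the list was 241 to 317 CPM with vehicle, highest in vehicle 2, and 243 to 272 CPM with EB. Drd1 was at 7.79 to 15.5 CPM and Adora2a at no more than 0.453 CPM, with 0 in EB 3, and the part of striatal RNA in these values was not tested.

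The calcium-stimulated relatives Pde1a and Pde1c varied widely between mice. Pde1a was at 509, 760.4 and 460.2 CPM with vehicle and 433, 420.2, 559 and 449 CPM with EB (log2 −0.31 ± 0.19). Pde1c was at 139, 203 and 109.6 CPM and at 138, 100.1, 170.1 and 126 CPM (log2 −0.17 ± 0.26). Vehicle 2 was the highest of all 7 mice in both and also in Pde1b, and the groups overlapped in Pde1a and Pde1c. Without vehicle 2 the Pde1c estimate turned positive, to 0.10. Vehicle 2 was the highest vehicle mouse in 8 of the 14 tested phosphodiesterases and in 19 of the 35 tested members, against 37.4% of all tested genes.

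The remaining phosphodiesterases had estimates between −0.20 and 0.19 on the log2 scale. Pde3b, which insulin signalling activates, was at −0.20 ± 0.12, and its relative Pde3a at 0.19 ± 0.23. Pde7a was at 0.11 ± 0.10, with 31.2 to 31.9 CPM in the 4 EB mice, the smallest SD relative to its mean (1.00%) of any member in either group. Pde2a (0.06), Pde8a (0.01), Pde8b (0.01) and Pde4d (−0.00) completed the group. Pde4c had 1 to 7 counts in a library and was not tested.

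Of the PKA subunits, Prkar2a was called and the other 5 were not. Prkacb was at 1064, 1118 and 1120.1 CPM with vehicle and 1120.3, 1066, 1142 and 1093 CPM with EB, a log2 change of 0.01 ± 0.05. Prkaca, the catalytic alpha subunit, was at 76.2, 109 and 90.8 CPM and at 83.5, 86.4, 86.9 and 89.5 CPM (log2 −0.09 ± 0.10), so that the EB mice lay within the vehicle range. Prkacb made up 77.4% ± 2.70 of catalytic transcripts per kb with vehicle and 78.4% ± 0.781 with EB. The type I regulatory genes Prkar1a (703 to 867 CPM with vehicle, 705 to 742 CPM with EB, log2 −0.08 ± 0.07) and Prkar1b, a mostly neuronal subunit (251 to 320.2 and 282 to 307 CPM, log2 0.03 ± 0.08), had overlapping groups. Vehicle 2 was the highest mouse in Prkaca, Prkar1a and Prkar1b.

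Prkar2a, at chr9:108689314-108750436 on the plus strand of GRCm38 (mm10), rose with EB. It was at 186, 208 and 189.8 CPM in the vehicle mice and at 269, 232, 239 and 251 CPM in the EB mice. Every EB mouse was above every vehicle mouse. The mean went from 195 ± 11.8 to 248 ± 15.9 CPM, a log2 change of 0.35 ± 0.07 (edgeR adjusted p = 0.0309; DESeq2 0.00140; limma-voom 0.0438). Prkar2b, the RII-beta subunit, had the opposite sign. It was at 65.7, 66.0 and 63.5 CPM with vehicle and at 55.8, 58.9, 52.2 and 50.9 CPM with EB, again without overlap (log2 −0.26 ± 0.08), but was not called (edgeR adjusted p = 0.258). In the 7 fits that leave out 1 mouse, the Prkar2a change stayed between 0.31 and 0.40, and the call held without vehicle 2 (adjusted p = 0.0212). It was lost without vehicle 1 (0.127), vehicle 3 (0.175), EB 1 (0.125), EB 2 (0.0502), EB 3 (0.0505) or EB 4 (0.0796), and with scaling to library totals alone (log2 0.38, adjusted p = 0.347). Over all alternatives its adjusted p ran from 0.00137 to 0.347.

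The ratio of Prkar2a to Prkar2b per kb was 1.62, 1.80 and 1.71 in the vehicle mice and 2.76, 2.26, 2.62 and 2.83 in the EB mice. The ratio of type II to type I regulatory transcripts went from 0.192 ± 0.0136 to 0.220 ± 0.0106, also with no overlap. The ratio of all regulatory to all catalytic transcripts was 1.85 ± 0.0993 and 1.85 ± 0.0510, with overlapping groups. With the longest transcript as the length, the first ratio was 2.03 ± 0.110 and 3.11 ± 0.300. The first ratio had to separate the groups, because Prkar2a was already apart on the higher side and Prkar2b on the lower side. It adds no evidence beyond those values. The ratio of type II to type I is not independent of them either. Prkar2a, at 30.5 CPM per kb with vehicle against 17.8 for Prkar2b, is the larger part of the type II sum. These ratios are descriptions of chosen genes and were not tested.

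**Figure D3:**
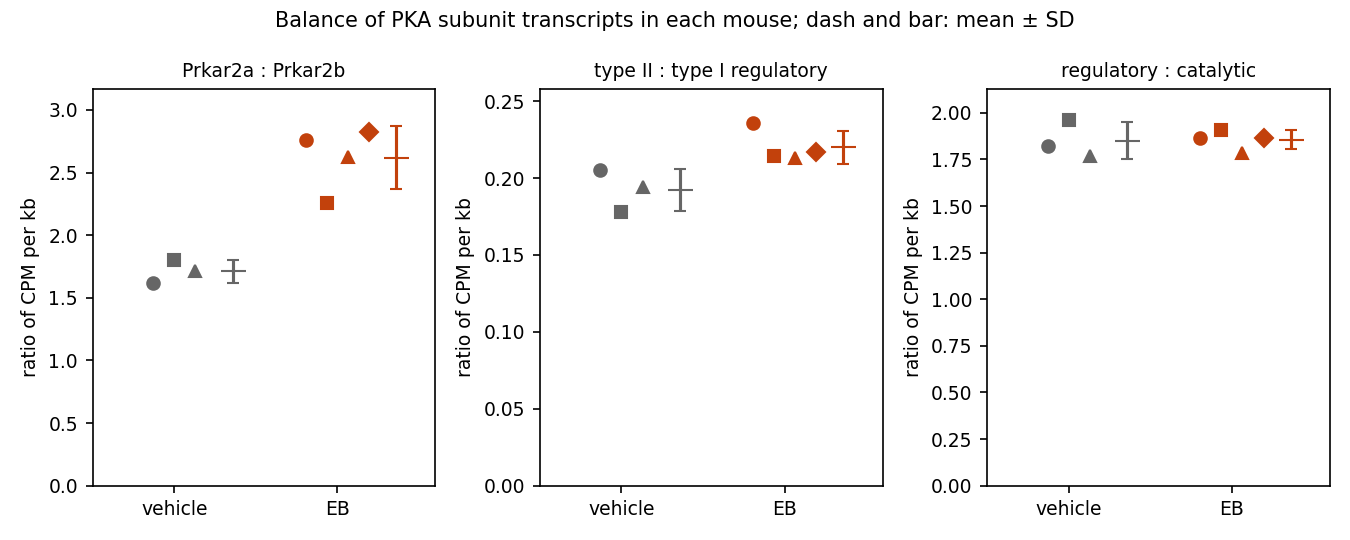
Ratios of PKA subunit transcripts, as CPM per kb of exon, in each of 3 vehicle and 4 EB mice, with mean ± SD beside them and axes from 0. The ratio of Prkar2a to Prkar2b lies between 1.62 and 1.80 with vehicle and between 2.26 and 2.83 with EB. It had to separate, because its genes are each apart in opposite directions. The ratio of regulatory to catalytic transcripts overlaps.

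Promoter sequence is shown for Prkar2a and Pde1b and for the only matched member with a complete cyclic AMP response element (CRE), the site that CREB1 binds. RefSeq (GRCm38.p6) gave 66 start sites for 29 of the 36 members, and the 250 bases before each start were searched on both strands. The full CRE, TGACGTCA, was in 1 of the 66 windows, a start of Prkar1a, against 1.55% of 32851 windows of all genes. Its half-site TGACG, which the full site contains, was in 13 windows of 11 members, against 17.8% of all windows. The palindromic estrogen response element (GGTCA, any 3 bases, TGACC) was in 0 of the 66 and in 0.0639% of all windows. The Prkar1a window, chr11:109650699-109650948 on the plus strand, has the full site at position −49 and a further half-site at −187 from the start. The Prkar2a window is chr9:108691893-108692142, and the first of 3 Pde1b windows is chr15:103502784-103503033, both on the plus strand. All 3 are shown 5′ to 3′ in lower case, with CRE and half-site matches in capitals. The Prkar2a and Pde1b windows hold no match. By GENCODE the Prkar1a and Prkar2a windows lie inside their genes, which start at 109649405 and 108689314, and the Prkar1a window runs into an annotated exon. A link between these sites and the changes with EB was not tested.
Prkar1a: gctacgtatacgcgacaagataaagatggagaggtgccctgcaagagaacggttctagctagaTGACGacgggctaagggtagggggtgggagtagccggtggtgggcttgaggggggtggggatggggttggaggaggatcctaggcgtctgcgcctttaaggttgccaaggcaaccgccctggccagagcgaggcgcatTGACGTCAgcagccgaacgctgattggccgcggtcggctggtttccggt
Prkar2a: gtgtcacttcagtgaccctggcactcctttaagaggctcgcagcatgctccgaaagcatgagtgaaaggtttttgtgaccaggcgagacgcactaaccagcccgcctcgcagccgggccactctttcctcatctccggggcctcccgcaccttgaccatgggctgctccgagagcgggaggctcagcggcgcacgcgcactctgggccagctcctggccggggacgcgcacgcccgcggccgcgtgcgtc
Pde1b: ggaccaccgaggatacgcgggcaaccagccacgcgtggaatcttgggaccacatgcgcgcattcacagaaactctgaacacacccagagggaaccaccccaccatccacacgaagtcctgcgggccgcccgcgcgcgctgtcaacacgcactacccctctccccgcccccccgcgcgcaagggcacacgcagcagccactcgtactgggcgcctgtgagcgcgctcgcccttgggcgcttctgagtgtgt

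The Epac genes and Creb1 were not called. Rapgef4 (Epac2), the form prominent in neurons, made up 92.0% ± 0.641 of Epac transcripts per kb with vehicle and 91.9% ± 1.90 with EB. Its log2 change was −0.08 ± 0.06, with 173 to 184 CPM in vehicle mice and 161 to 175 CPM in EB mice. Rapgef3 (Epac1) had a change of −0.06 ± 0.17. Creb1 was at 107, 98.2 and 90.4 CPM with vehicle and 114, 96.7, 108 and 116 CPM with EB (log2 0.14 ± 0.09, adjusted p = 0.708 by edgeR). The groups overlapped in all 3 of these genes, and edgeR, DESeq2 and limma-voom called 0 of them, with 0 at an unadjusted p under 0.05.

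Popdc3 had the largest change of the tested members. This Popeye gene, whose protein is a membrane partner of BVES and binds cyclic AMP, lies at chr10:45178098-45318452 on the plus strand of GRCm38. It was at 6.49, 10.9 and 5.55 CPM in the vehicle mice and at 1.34, 2.90, 3.16 and 2.92 CPM in the EB mice. All EB mice were below all vehicle mice, with vehicle 2 highest and EB 1 lowest. The counts behind these values ran from 41 to 343 in a library. The mean fell from 7.63 ± 2.84 to 2.58 ± 0.835 CPM, a log2 change of −1.60 ± 0.30 (edgeR adjusted p = 0.0202; DESeq2 0.000154; limma-voom 0.0477). The change ran from −1.78 to −1.24 with 1 mouse left out. The call was lost without vehicle 2 (adjusted p = 0.112), EB 1 (0.0629) or EB 2 (0.0552), and over all alternatives its adjusted p ran from 2.63e-07 to 0.112. An antisense gene, Gm15934, overlaps 120 bases of Popdc3 exons, and without a stated use of strand reads there cannot be assigned.

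Bves (Popdc1), the next protein-coding gene, starts 17319 bases beyond Popdc3 on the same strand, at chr10:45335772-45372479. It was at 2.02, 3.04 and 2.25 CPM with vehicle and at 1.31, 1.66, 1.56 and 1.93 CPM with EB. As in Popdc3, the groups did not overlap, vehicle 2 was highest and EB 1 lowest, but edgeR did not call Bves (log2 −0.62 ± 0.31, adjusted p = 0.586). Prep, a peptidase gene on the other side of Popdc3, chosen after its values were seen, was not called either (log2 −0.29 ± 0.19, adjusted p = 0.719). The ratio of Popdc3 to Bves per kb was 7.11, 7.91 and 5.47 in the vehicle mice and 2.27, 3.85, 4.49 and 3.34 in the EB mice, without overlap. Bves had 37 to 96 counts in a library, and the ratio was not tested. Popdc2, the member best known from heart muscle, was at 0.264 to 0.602 CPM with vehicle and 0.392 to 0.863 CPM with EB, from 6 to 28 counts (log2 0.53 ± 0.53). Popdc3 made up 83.4% ± 1.72 of Popeye transcripts per kb with vehicle and 65.5% ± 4.84 with EB. This share and the ratio to Bves restate the fall in Popdc3 and add no evidence beyond it.

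**Figure D4:**
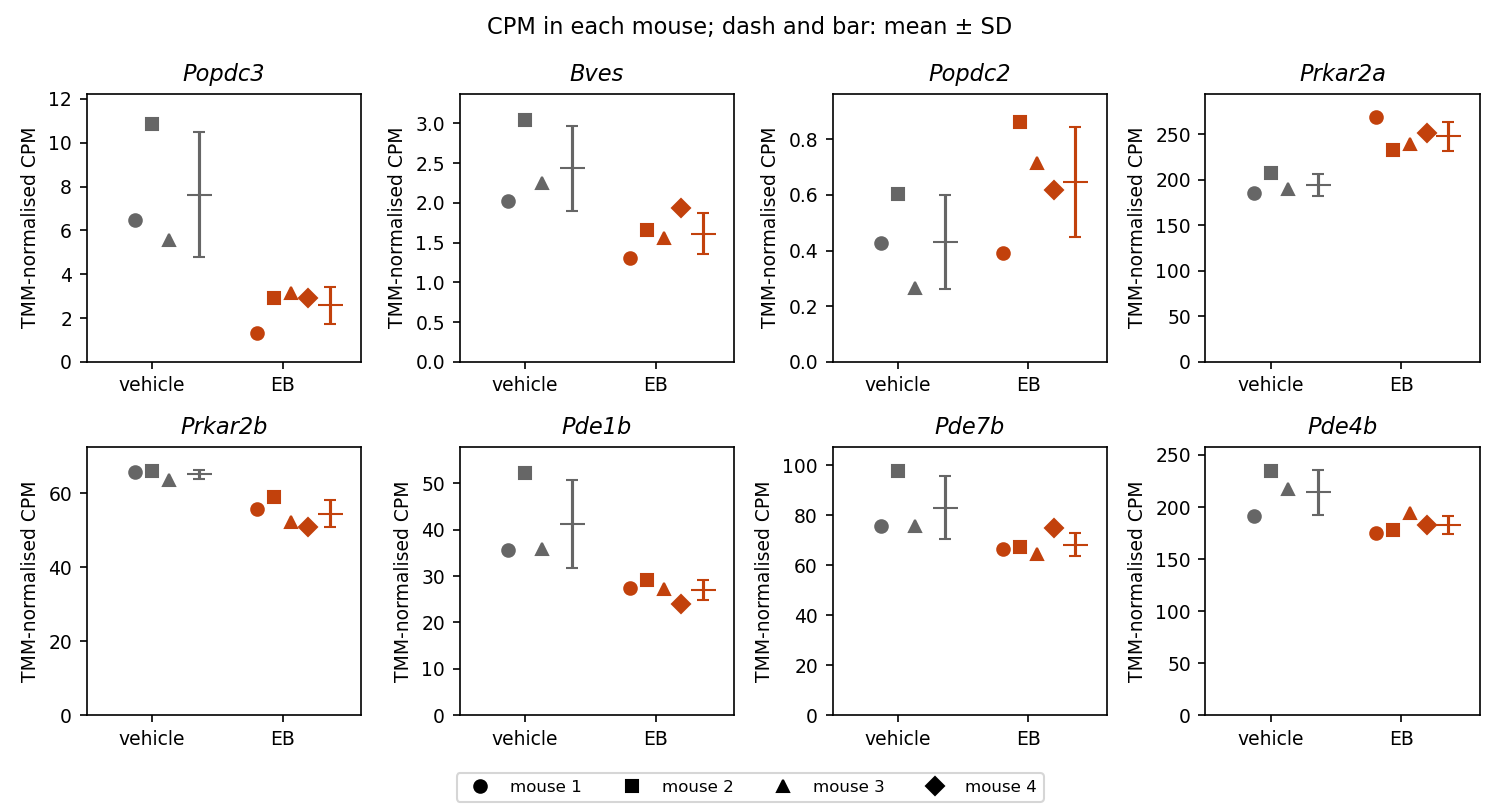
TMM-normalised CPM in each mouse for 8 members, with vehicle mice in grey, EB mice in orange, a symbol for each mouse number within its group, and mean ± SD at the side; axes start at 0 and a number does not link mice across groups. Groups are apart in Popdc3, Bves, Prkar2a, Prkar2b, Pde1b and Pde7b and overlap in Popdc2 and Pde4b, and vehicle 2 is the highest mouse in Popdc3 at 10.9 CPM and Pde1b at 52.2 CPM.

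**Figure D5:**
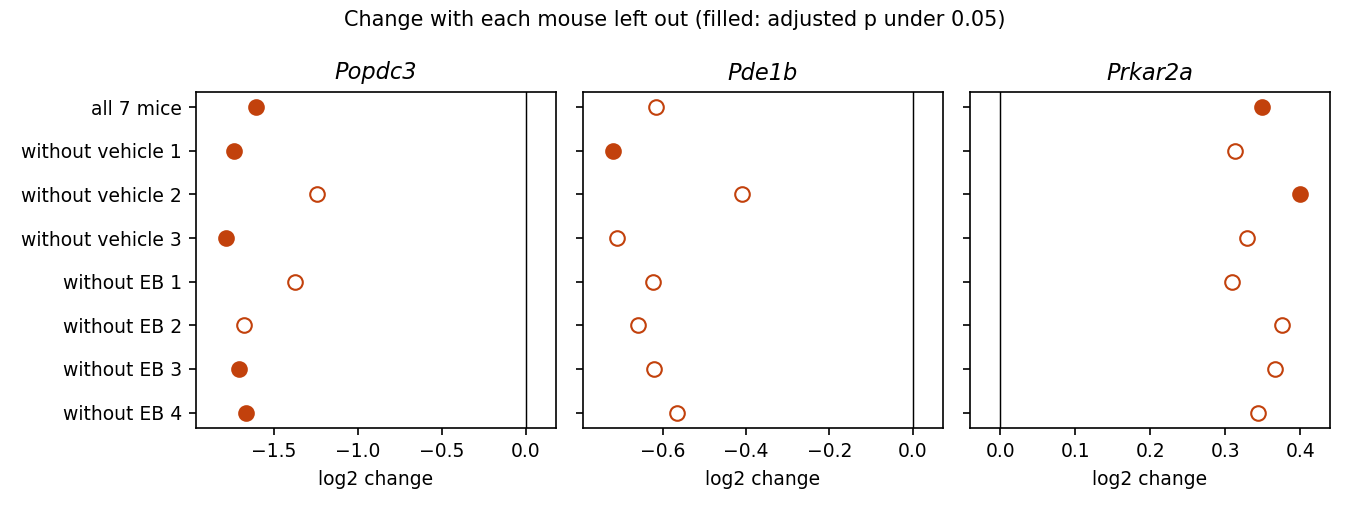
Log2 change of Popdc3, Pde1b and Prkar2a with all 7 mice and with each mouse left out, with filled circles for an adjusted p under 0.05 by edgeR. Direction is the same in every fit shown, and 4 of 7 such fits call Popdc3, 1 calls Pde1b and 1 calls Prkar2a.

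Further genes of the pathway were taken from a list of 60, among them G proteins, other phosphodiesterases, PKA inhibitors and anchoring proteins, CREB partners, Rap genes, PKA substrates and cyclic nucleotide-gated channels. Of the 50 that could be tested, edgeR called 0 higher and 1 lower, DESeq2 called 1 and limma-voom 1, and 9 had an unadjusted p under 0.05, 6 higher and 3 lower. Over all tested genes 0.952% were called by edgeR, and 9.04% had an unadjusted p under 0.05 (4.87% higher and 4.18% lower). DESeq2 called 1.96% of its genes and limma-voom 0.816%. The groups did not overlap in 5 of the further genes on the higher side and 3 on the lower side. Over all tested genes these shares were 5.11% and 3.99%. The median log2 change was −0.02. The called gene was Rapgef5, a Rap exchange factor related to the Epac proteins. It was at 78.9, 77.2 and 71.0 CPM with vehicle and at 56.2, 49.4, 60.5 and 50.3 CPM with EB, so every EB mouse was below every vehicle mouse. Its log2 change was −0.49 ± 0.09 (edgeR adjusted p = 0.0190). The call held without EB 3 (adjusted p = 0.0139) and was lost without any other mouse (0.0502 to 0.0694) and with library totals alone (0.244).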

How the data were processed

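RNA-seq counts from 7 libraries, 1 mouse each (3 vehicle, 4 EB), were used. The authors deposited raw counts per gene symbol, whole numbers with no normalisation. Libraries were made from 15 ng of RNA, per the labels' protocols. HISAT2, HTSeq, DESeq2 and the build mm10 are named in the submitters' processing notes. For versions, annotation, strand setting and multiply mapped reads, the entry is "not given in the sources used here". By GENCODE M21 (GRCm38, also named mm10), exons of 12 members overlap another gene, 9 of them one on the opposite strand. Reads shared with another counted gene cannot be assigned. Adcy3 has 22.1% of its exon length in common with Cenpo, which had 56 to 124 counts in a library. Pde2a has 64.3% in common with the model Gm45837, but that model has no row in the count tables.

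Genes were filtered with filterByExpr (minimum count 10), which left 18387 of 31222 genes with any count. After TMM scaling, the whole table went through the quasi-likelihood test of edgeR 4.0.16 in R 4.3.3 (robust glmQLFit, legacy = FALSE, then glmQLFTest). Adjusted p-values with no tool beside them are edgeR values. SE is the absolute log2 change over the square root of F. Alternatives were DESeq2 1.42.0, limma-voom (limma 3.58.1) with and without sample weights, other scalings and filters, an adjusted p under 0.1, removal of 237 mitochondrial, haemoglobin and rRNA genes, and each mouse left out. The earlier quasi-likelihood fit was added after seeing the data. Tests were checked on simulated counts with known changes. Each gene took the dispersion usual at its level, and no library was made to stand apart. Changed genes were drawn from all tested genes, not from the members. The rates below may therefore differ for these libraries and for the members. At an adjusted p under 0.05, 5.36% of edgeR's calls were false, 12.6% of DESeq2's and 5.03% of limma-voom's. Of the genes simulated with a change, edgeR recovered 33.3% at 1.5-fold, 58.6% at 2-fold and 82.7% at 4-fold. A gene that was not called may therefore still have changed.

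The members and gene lists were chosen with earlier results of these data known. Named genes are all 36 members and, of the further pathway list, those called. Marker lists covered VMH, VMHvl, arcuate, striatal, cortical, pituitary, neuronal, glial, vascular and blood genes. Replicate numbers name mice in accession order.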

Additional observations from a re-analysis of the deposited data

Results flagged for a closer look

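Within the 4 EB mice, 1 mouse lay far from the other 3 in 3 of 36 genes examined (the 35 tested members and Rapgef5), where chance alone flags about 1 group in 20. EB 1 was the lowest for Popdc3, at 1.34 CPM against 2.90 to 3.16 CPM in the others. EB 2 was the highest for Adcy2, at 100.4 CPM against 88.2 to 90.1 CPM, and for Adcy8, at 24.2 CPM against 20.9 to 21.1 CPM. Without EB 1 the log2 change of Popdc3 was −1.37 (edgeR adjusted p = 0.0629). The vehicle group has 3 mice and was not examined in this way.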

How the results depend on the processing

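Results were refitted under 11 other settings and with each mouse left out. No paired analysis was possible because replicate numbers only name mice in accession order and no label links a vehicle mouse to an EB mouse. Members called higher (1) became 0 with library totals only and 0 to 1 with a mouse left out. Members called lower (1) became 2, with Pde1b added, under DESeq2, upper-quartile scaling, no filter on low counts, a filter of 1 CPM and an adjusted p under 0.1, and 0 to 2 with a mouse left out. Over all genes, 137 higher became 232 (DESeq2), 240 (no filter) and 78 to 122 (a mouse left out), and 38 lower became 119 (DESeq2), 17 (library totals), 135 (no filter), 64 (adjusted p under 0.1) and 20 to 45 (a mouse left out). Further pathway genes called lower (1) became 0 with library totals, 2 with no filter and 0 to 1 with a mouse left out.

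Of 36 genes (35 members and Rapgef5), 21 kept their sign in every fit. The other 15 were not called, and their log2 changes crossed zero. With sample weights in limma-voom, Adcy1 was 0.069, Pde3a −0.013, Pde8a −0.14 and Pde8b −0.030. With library totals, which moved the median of all genes by 0.040, Adcy1 was 0.026, Adcy8 0.0038 and Pde4d 0.028. Pde4d was 0.00018 under limma-voom and 0.0043 without mitochondrial, haemoglobin and rRNA genes. With a mouse left out, the ranges were −0.11 to 0.12 (Adcy1), −0.10 to 0.011 (Adcy2), −0.018 to 0.077 (Adcy6), −0.17 to 0.067 (Adcy8), −0.36 to 0.10 (Pde1c), −0.041 to 0.13 (Pde2a), −0.037 to 0.37 (Pde3a), −0.089 to 0.11 (Pde4d), −0.23 to 0.19 (Pde8a), −0.054 to 0.079 (Pde8b), −0.21 to 0.052 (Prkaca), −0.022 to 0.020 (Prkacb), −0.14 to 0.021 (Prkar1a), −0.071 to 0.10 (Prkar1b) and −0.20 to 0.053 (Rapgef3). Causes were not tested. Depth limits Adcy4 (5 to 22 counts), Popdc2 (6 to 28) and Pde4c (1 to 7). Adcy4 and Popdc2 did not pass the filter of 1 CPM and have no value there.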
